A study of Homo sapiens with 3 samples.

Results

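The S100 proteins are small calcium-binding proteins of vertebrates, and 10 of their genes were read here in HT-29 cells, an established human colon adenocarcinoma line of epithelial origin. The members were the genes S100A2, S100A4, S100A6, S100A8, S100A9, S100A10, S100A11, S100A13, S100A14 and S100P, each with every probe set that the platform annotation gives to that symbol alone. They had 12 of the 19065 probe sets tested, which name a single gene and are no array controls, and they were 10 of 11963 genes. Gene expression had been measured on Affymetrix arrays in 3 cultures, all given 200 U/ml of interferon-γ (IFN-γ) for 24 h and described by the series as biological replicates. All arrays therefore form 1 group, untreated cultures were not analysed here, and every value below is a level in treated cells and not a response to IFN-γ. The cells are 1 line and each culture was read on 1 array. The spread between arrays therefore holds differences between cultures of this line and between array measurements, which cannot be told apart here. In such bulk RNA a gene that few cells express and one that all cells express weakly cannot be told apart.

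Most S100 proteins work as dimers that open a binding face when calcium occupies their EF-hand loops, and through it they dock on annexins, cytoskeletal proteins and other targets. Several are also released, and act outside the cell on receptors such as RAGE (gene AGER) and TLR4. In the gut the pair of S100A8 and S100A9, called calprotectin, is known as the abundant cytosolic protein of neutrophils and as a marker of intestinal inflammation in stool. Most human S100 genes lie in a cluster on chromosome 1, whereas S100P lies on chromosome 4.

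Promoter sequence is shown for 4 members, a pair detected far over background and the calprotectin pair, which stayed at background. Each line gives the 250 bases before an annotated start from RefSeq (GRCh38.p14), 5′ to 3′ on the strand of the gene, with matches to TATAAA, the core of the TATA box, in capitals. The S100A10 window is chr1:151993860-151994109 on the minus strand and the S100P window is chr4:6693628-6693877 on the plus strand. The S100A8 window is chr1:153391074-153391323 on the minus strand and the S100A9 window is chr1:153357604-153357853 on the plus strand. S100A8 has several annotated starts, and the window shown was picked for holding TATAAA 40 to 20 bases before its start. In the other S100A8 windows TATAAA begins at -126 from the start or is absent.
S100A10: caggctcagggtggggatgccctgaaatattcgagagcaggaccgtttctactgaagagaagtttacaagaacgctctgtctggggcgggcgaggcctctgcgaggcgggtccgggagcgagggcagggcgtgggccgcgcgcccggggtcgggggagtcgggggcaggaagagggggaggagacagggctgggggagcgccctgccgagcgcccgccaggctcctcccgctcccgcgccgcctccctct
S100P: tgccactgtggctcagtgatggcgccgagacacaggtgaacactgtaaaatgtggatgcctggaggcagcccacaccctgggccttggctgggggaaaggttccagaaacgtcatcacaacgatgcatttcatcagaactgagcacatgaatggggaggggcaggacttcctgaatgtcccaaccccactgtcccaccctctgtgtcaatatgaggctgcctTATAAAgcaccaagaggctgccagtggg
S100A8: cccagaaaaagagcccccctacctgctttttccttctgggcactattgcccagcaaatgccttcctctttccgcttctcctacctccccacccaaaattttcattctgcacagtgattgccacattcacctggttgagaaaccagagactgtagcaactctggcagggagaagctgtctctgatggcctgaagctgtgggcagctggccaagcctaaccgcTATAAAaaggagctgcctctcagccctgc
S100A9: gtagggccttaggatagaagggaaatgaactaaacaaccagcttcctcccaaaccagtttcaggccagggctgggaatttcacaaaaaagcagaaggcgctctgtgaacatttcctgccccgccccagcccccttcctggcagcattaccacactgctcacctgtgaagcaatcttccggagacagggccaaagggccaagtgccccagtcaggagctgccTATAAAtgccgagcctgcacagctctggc

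The names of the probe sets did not match the values in the deposited order, and the member values rest on an order inferred from the data. Probe sets of 1 gene should have related signals. This was read over 2433 genes with probe sets whose names differ in their first 3 characters. The log2 signals of such pairs gave r = 0.55 in the inferred order, against r = -0.02 as deposited. These are correlations over genes, and genes are no independent replicates. The inferred order was then checked in the rows around each member. For each member probe set, up to 1000 rows on either side were displaced by 2001 offsets, and the other genes in them were correlated with their own probe sets outside that stretch. All 12 windows had their highest r at the inferred row, with r between 0.30 (S100A14) and 0.55 (S100A8, 214370_at). Windows of members that lie near each other in the table overlap, so the 12 are not separate checks. The probe sets outside each stretch were themselves taken at their inferred rows. At the deposited row the 12 windows gave r between -0.17 and 0.07.

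S100A14 was the member whose row was least well fixed. Its window, with 332 pairs of probe sets, gave r = 0.302 at the inferred row and 0.2997 at 1 row earlier. Stretches to either side were then read, chosen after this was seen. The rows well before it gave r = 0.45 at the inferred row and 0.01 at 1 row earlier (654 pairs), and rows after it gave 0.37 and 0.07 (216 pairs). The stretch after it overlaps the far end of the window, and neither stretch holds the rows nearest S100A14. The value 1 row earlier would be 369.5, 185.5 and 252.7 in replicates 1, 2 and 3, and that 1 row later 43.3, 69.9 and 135.0. The first lies under the background limit, 189.5, in replicate 2 and over the limits of replicates 1 and 3. Whether it would count as detected was not tested. The second lies under the limit on every array, so the detection of S100A14 depends on its row. For S100A10, S100A11 and the 202598_at probe set of S100A13, whose names moved by 488 rows, r at the neighbouring rows was at most 0.32, against 0.38 or more at the inferred row.

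**Figure D1:**
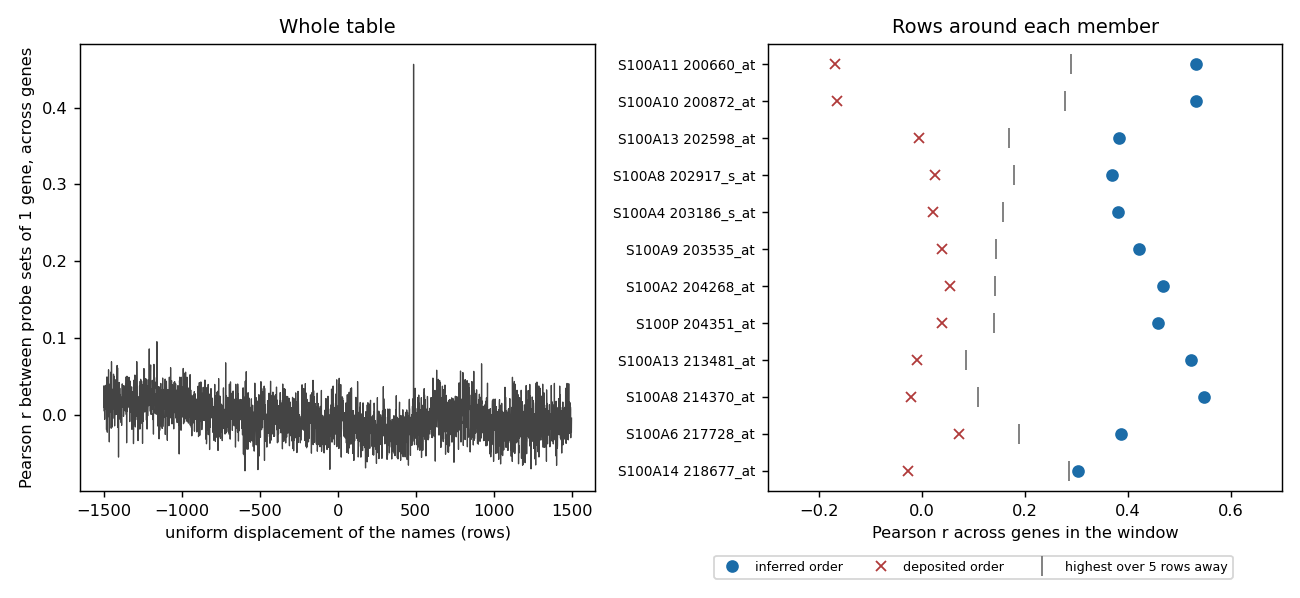
Check of the order of the probe set names. Left, Pearson r of the log2 signals of probe sets of 1 gene (y axis) against a uniform displacement of all names in rows (x axis), with its single peak at 487 rows. Right, r in the rows around each member probe set in the inferred order (circles), in the deposited order (crosses) and the highest r at any offset more than 5 rows away (bars), where every circle lies to the right of its bar and that of S100A14 only narrowly.

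The question asked of each probe set was whether its signal exceeded the background of its array by more than the spread between arrays. The background limit was the 95th percentile of 101 probe sets of 67 genes restricted to other tissues, and it lay at a signal of 201.1, 189.5 and 176.4 in replicates 1, 2 and 3. Signals are linear intensities, and differences from the limit are given on the log2 scale. Detection means an adjusted p under 0.05 in limma's one-sided test, with Benjamini-Hochberg adjustment over all 19065 probe sets. Of these, 7155 probe sets (37.5%) were detected, among them 2 of the 101 background probe sets. The SE and confidence interval of each difference are limma's moderated ones. They draw on a trend of variance with signal over all probe sets, so they differ from the plain SE of the 3 arrays. Different probe sets bind their targets with different strength, so differences from the limit say how clearly a probe set was detected and do not order the transcript levels of different genes.

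HT-29 cells given IFN-γ had detected signals of S100A6, S100A10, S100A11, S100P, S100A4, S100A13, S100A14 and S100A2, and no detected signal of S100A8 or S100A9. The first 4 probe sets lay more than 4 log2 units over the limit. In all, 8 of the 12 probe sets were detected, beside the background of 37.5% over all probe sets. By gene, 8 of the 10 had a detected probe set, beside 42.8% of all 11963 genes. The median difference from the limit was 2.42 log2 units over the 12 member probe sets and -0.32 over all 19065. The genes had been chosen with earlier results of these data known, so these shares describe the list and are no evidence about the family.

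**Figure D2:**
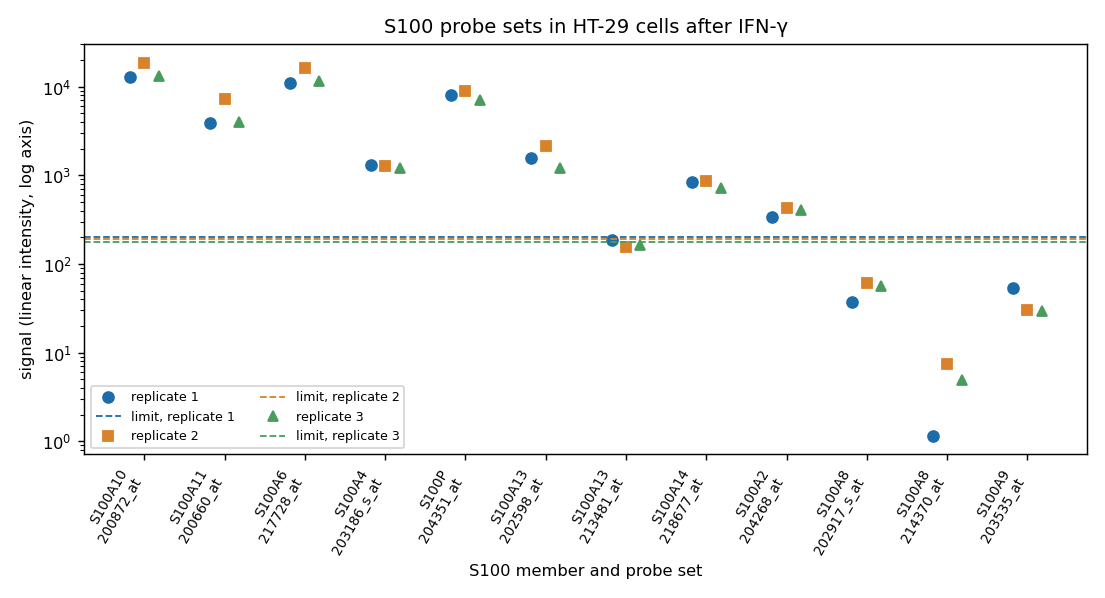
Signal of every member probe set (y axis, linear intensity on a log axis) in replicates 1, 2 and 3 (circles, squares and triangles), with the limit of each array as a dashed line. The 3 points of 8 probe sets lie above all limits, S100A13 213481_at lies just under them, and S100A8 and S100A9 lie well under them.

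S100A10, S100A11 and S100A6, each known to bind an annexin, were detected. S100A10, also called p11, is a member that has lost calcium binding and is held in a complex with annexin A2 at the membrane. Its signals were 13017, 18682 and 13296 in replicates 1, 2 and 3. All lay far above the limits, by 6.29 ± 0.23 log2 units (SE, n = 3; limma adjusted p = 1.9e-08). S100A11, known for binding annexin A1, had signals of 3872, 7297 and 3992. Replicate 2 stood above the other arrays, and the mean difference from the limit was 4.68 ± 0.22 log2 units (SE, n = 3; limma adjusted p = 3.9e-08). S100A6, or calcyclin, which binds annexin A11 and the calcyclin-binding protein CACYBP, had signals of 10981, 16442 and 11562, and again replicate 2 was the highest. It lay 6.08 ± 0.23 log2 units over the limit (SE, n = 3; limma adjusted p = 1.9e-08).

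S100P and S100A4, each known to bind proteins of the cytoskeleton or its membrane links, were detected too. S100P, a placental and tumour-associated S100 protein that activates the membrane linker ezrin, had signals of 8091, 9011 and 7161 in replicates 1, 2 and 3. These lay within 0.33 log2 units of each other and 5.42 ± 0.19 log2 units over the limit (SE, n = 3; limma adjusted p = 1.9e-08). S100A4, or metastasin, which binds non-muscle myosin IIA and is linked to cell motility, had signals of 1299, 1266 and 1213. It was the steadiest member, with an SD of 0.05 log2 units, and only 2.47% of all detected probe sets had a smaller one. Its difference from the limit was 2.74 ± 0.16 log2 units (moderated SE, not that of its own 3 arrays alone; limma adjusted p = 1.3e-07). Its only probe set ends in _s_at, the mark of a design that can bind more than 1 transcript.

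S100A13, which takes part in the release of FGF1 and interleukin-1α by a route that bypasses the secretory pathway, had probe sets that disagreed. The first, 202598_at, had signals of 1572, 2150 and 1198 in replicates 1, 2 and 3 and was detected at 3.08 ± 0.19 log2 units over the limit (SE, n = 3; limma adjusted p = 1.9e-07). The second, 213481_at, had signals of 188.1, 155.5 and 164.0, under the limit on every array, and was not detected (-0.16 log2 units, limma adjusted p = 1). What sets these probe sets apart was not tested, and S100A13 is counted as detected through the first alone.

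S100A14, a member found in epithelia, had signals of 846.2, 867.7 and 715.3. All lay above the limits, by 2.10 ± 0.16 log2 units (SE, n = 3; limma adjusted p = 1.1e-06). S100A2, best known from keratinocytes and other squamous cells, where it is often called a tumour suppressor, had signals of 341.1, 431.7 and 405.2 in replicates 1, 2 and 3. Its difference from the limit, the smallest among the detected probe sets, was 1.05 ± 0.19 log2 units (SE, n = 3; limma adjusted p = 0.00062). With the limit at the 99th percentile of the background probe sets it lay at 0.38 log2 units and was not detected (limma adjusted p = 0.174), while over the 11 alternatives with re-ordered names the adjusted p ran from 0.000152 to that value.

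The calprotectin genes stayed under the limit. S100A8 had signals of 37.8, 61.6 and 56.8 on probe set 202917_s_at in replicates 1, 2 and 3, which is -1.89 log2 units relative to the limit. On its other probe set, 214370_at, it had 1.16, 7.55 and 4.98. S100A9 had signals of 53.9, 30.6 and 29.7, or -2.37 log2 units relative to the limit. None of these 3 probe sets exceeded the limit on any array, and limma's adjusted p was 1 for each. At this background, transcripts of S100A8 and S100A9 were not detectable, which does not show that they were absent. Differences between arrays at this level, such as the higher S100A9 signal in replicate 1, lie in the range of background.

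The other S100 genes measured on the arrays were not detected either. S100A1, known from heart and skeletal muscle, had signals of 122.8, 118.4 and 160.3 and a mean difference of -0.51 log2 units from the limit. S100A12, which neutrophils express together with S100A8 and S100A9, had signals of 42.7, 27.2 and 75.4. S100A7, or psoriasin, a product of inflamed skin, had 3.70, 7.78 and 3.67. S100B, a protein of glia and melanocytes, had 9.66, 7.83 and 8.31. By limma 0 of the 7 genes S100A1, S100A3, S100A5, S100A7, S100A12, S100B and S100G were detected, 0 had an unadjusted p under 0.05, and none was above the limit on all arrays. S100A3 and S100A5 had their highest signals in replicate 3, with 123.4 and 79.0 there, against 24.3 and 17.2 at most in replicates 1 and 2. S100A7A, S100A16 and S100Z had no probe set of their own and were not analysed here.

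Along chromosome 1, detected and undetected S100 genes alternated in part. Of 16 listed S100 genes there, 14 were measured and 7 were detected, all of them members. In RefSeq's order S100A10 and S100A11 come first, and both were detected. The next 4 measured genes, S100A9, S100A12, S100A8 and S100A7, were all at background. From there S100A6, S100A4 and S100A2 were detected, while S100A5 and S100A3, which lie between them, were not. S100A14 and S100A13 were detected and S100A1, the last of the cluster, was not.

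**Figure D3:**
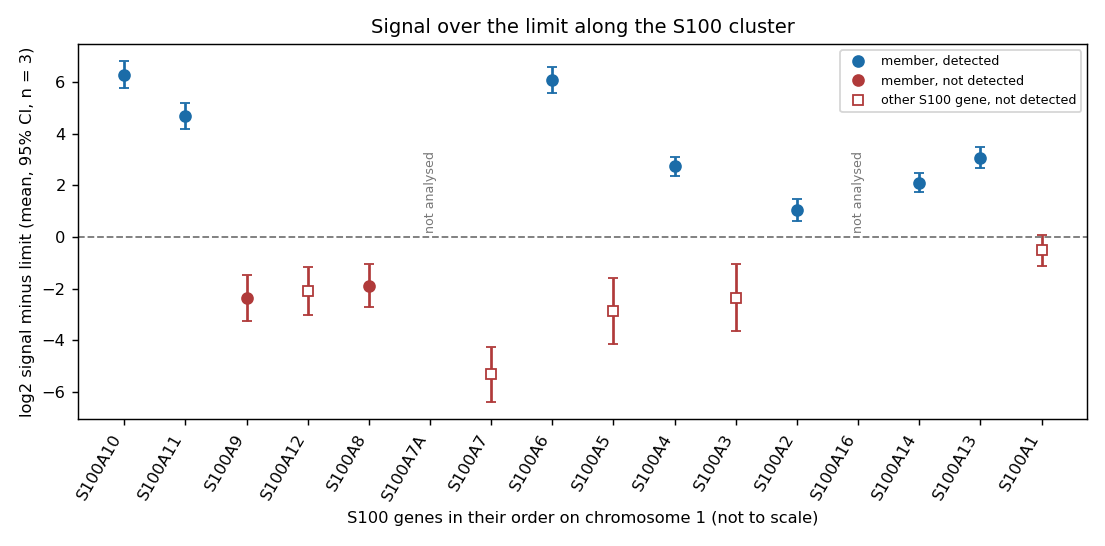
Difference of log2 signal from the limit (y axis, mean of 3 arrays with limma's moderated 95% confidence interval) for the S100 genes in their order on chromosome 1 (x axis, not to scale), read from the brightest probe set of each gene. S100A9, S100A12, S100A8 and S100A7 form a run under the dashed line of the limit, and further along the 5 detected members alternate in part with undetected genes.

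The promoters of detected and undetected members shared some features. RefSeq windows were found for all 10 members, 15 in all, since S100A2, S100A8 and S100A13 have several starts. TATAAA stood 40 to 20 bases before a start, on the strand of the gene, in 5 of the 10 genes, namely S100A4, S100A8, S100A9, S100A13 and S100P, and 2.3% of 35116 RefSeq windows have it there. These 5 hold 3 detected members and the calprotectin pair, which was not detected. Counted by window, 5 of the 15 member windows have it there. CpG dinucleotides numbered 24 in the windows of S100A6 and S100A10 and 15 in that of S100A11. The other detected members had fewer in most windows, with 3 and 4 for S100A2, 4 for S100A14 and S100P, 7 for S100A4, and 8, 10 and 15 for S100A13. Among the undetected members S100A9 had 4 and S100A8 had 2 in each of its 3 windows, and the median of all windows was 11. TGANTCA, the core of AP-1 sites, was found on either strand in 1 of the 15 member windows, one of S100A2, and in 6.57% of all windows. TTCNNNGAA, also searched on either strand, was found in 0 of the 15 member windows and in 6.57% of all windows. The motifs were searched without regard to overlap, and their match or absence is a description of these windows only.

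Most listed genes whose proteins bind the detected members inside the cell were detected as well. Of the 10 measured intracellular partners, 9 had a detected probe set, and 19 of their 26 probe sets were detected, against 42.8% of all genes and 37.5% of all probe sets. The partners were listed with earlier results of these data known, so these shares describe the list only. A gene counts if any probe set passed, and these 10 genes had 26 probe sets, against 19065 for all 11963 genes. ANXA2, the partner of S100A10, was detected by all of its 3 probe sets, with signals of 14267, 15975 and 22929 on 201590_x_at in replicates 1, 2 and 3 (6.52 log2 units above the limit; limma adjusted p = 1.9e-08). Its highest signal fell in replicate 3, whereas that of S100A10 fell in replicate 2. All 3 ANXA2 probe sets end in _x_at, the mark of designs that may cross-hybridise, so related transcripts can contribute. ANXA1, the partner of S100A11, had signals of 3878, 3092 and 4108, 4.28 log2 units above the limit (limma adjusted p = 2.1e-08).

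CACYBP, the calcyclin-binding protein, was detected by 3 of its 4 probe sets, and ANXA11 by both of its probe sets. EZR, which encodes ezrin, was detected by 4 of 5 probe sets, between 2.98 and 3.37 log2 units over the limit. IQGAP1, a scaffold that S100P binds, was detected by 3 of 3, and MYH9, the heavy chain of the myosin that S100A4 binds, by its single probe set, with signals of 608.1, 741.5 and 337.1. AHNAK, a giant scaffold of the annexin A2 and S100A10 complex, was detected by 1 of 2 probe sets, and PPFIBP1, a binding partner of S100A4, by 1 of 4. S100PBP, which binds S100P, lay at the limit with signals of 187.2, 141.5 and 231.9 and was not detected (-0.04 log2 units, limma adjusted p = 1). SUGT1, which also belongs to the list, had no probe set of its own and was not analysed here.

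Receptors and export partners were mostly at background. Of the 4 receptors of secreted S100 proteins, 1 was detected: BSG, or basigin, a receptor of S100A9, had signals of 2295, 2791 and 1211 and lay 3.39 log2 units above the limit (limma adjusted p = 2.8e-07). AGER had 63.1, 106.1 and 78.8 on its brighter probe set, and TLR4 had 105.6, 139.4 and 149.2, all under the limit. CD36, which binds the calprotectin complex, was not detected by any of its 3 probe sets. By limma 0 of the 6 probe sets of FGF1, IL1A and SYT1, which leave the cell with S100A13, were detected, 0 had an unadjusted p under 0.05, and none was above the limit on all arrays. The channels TRPV5, TRPV6 and KCNK3, which S100A10 helps bring to the membrane, and the plasminogen genes PLG and PLAT were not detected either. Together with the export partners these made 11 probe sets, of which 0 passed at an unadjusted p under 0.05. Over all 22 measured partners, 10 genes and 20 of 44 probe sets were detected, shares near the 42.8% of all genes and 37.5% of all probe sets.

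**Figure D4:**
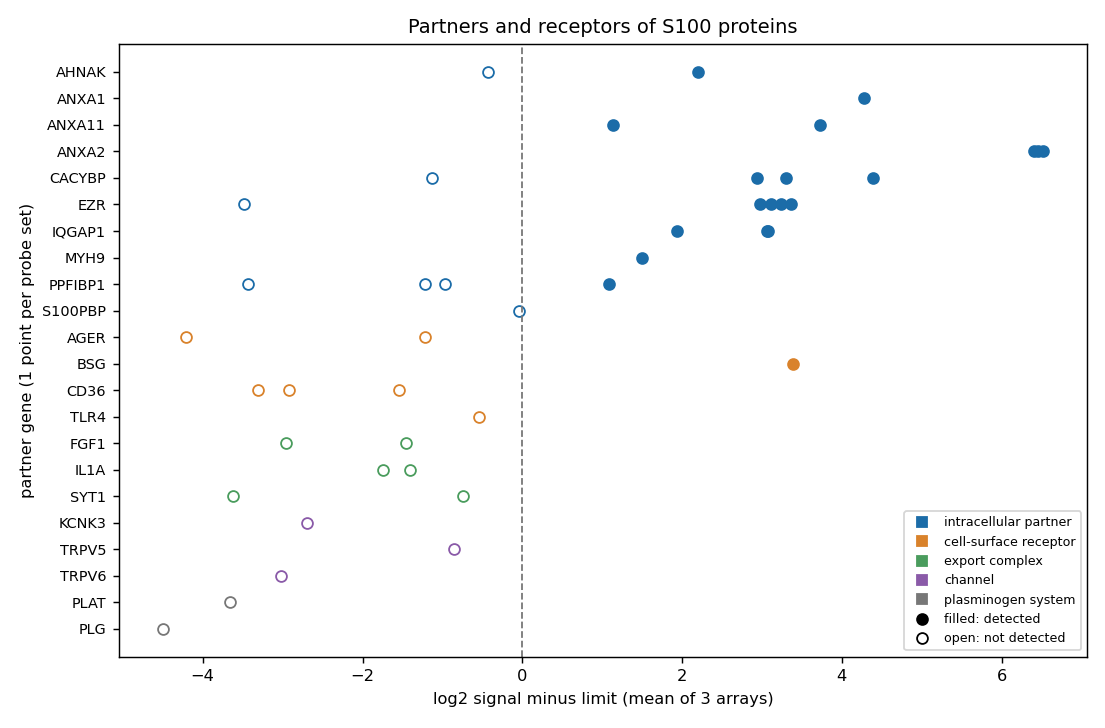
Difference of log2 signal from the limit (x axis, mean of 3 arrays) for each probe set of the genes whose proteins bind, receive, export or use S100 proteins (y axis), coloured by role. Filled points were detected, and apart from BSG all of them belong to intracellular partners.

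Markers of cell types were read beside the members, since S100A8, S100A9 and S100A12 are known from myeloid cells and S100A2 and S100A7 from squamous epithelium. Of 10 colon epithelial markers 9 were detected, and CDH17 was the exception at -3.75 log2 units relative to the limit. Of 12 myeloid genes 1 was detected: LYZ, which intestinal epithelium can also make, with signals of 6777, 6612 and 14391. The summed signal of the myeloid probe sets ran from 7501 to 15470 over the arrays, most of it LYZ, and none of the probe sets was at 0. The defining myeloid genes CD14, CSF1R, MPO and ELANE were not detected. Of 9 squamous genes 1 was detected, KRT10 on probe sets with the _x_at and _s_at suffixes, with a summed signal of the squamous probe sets between 4198 and 4492. KRT5, KRT14 and DSG3 were not detected beside S100A2. Of 6 fibroblast genes 1 was detected, COL1A1 by 1 of 4 probe sets.

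Between the arrays the spread of the detected members ran from small to large. Their SD of log2 signal had a median of 0.23 over 8 probe sets, against 0.29 over all 7155 detected probe sets. It ran from 0.05 for S100A4 to 0.52 for S100A11, and 84.0% of detected probe sets had a smaller SD than S100A11. Replicate 2 had the highest signal for 7 of the 8, the exception being S100A4, whereas 35.9% of all detected probe sets were highest there. Replicate 3 was lower than replicate 2 for 8 of 8, against 51.2% of all detected probe sets. The median log2 difference of replicate 3 from replicate 2 was -0.41 over the detected members and -0.02 over all detected probe sets, and that of replicate 1 from replicate 2 was -0.40 and 0.03. Each replicate number is a single culture on a single array, so these differences between arrays have no replicate check and no test.

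**Figure D5:**
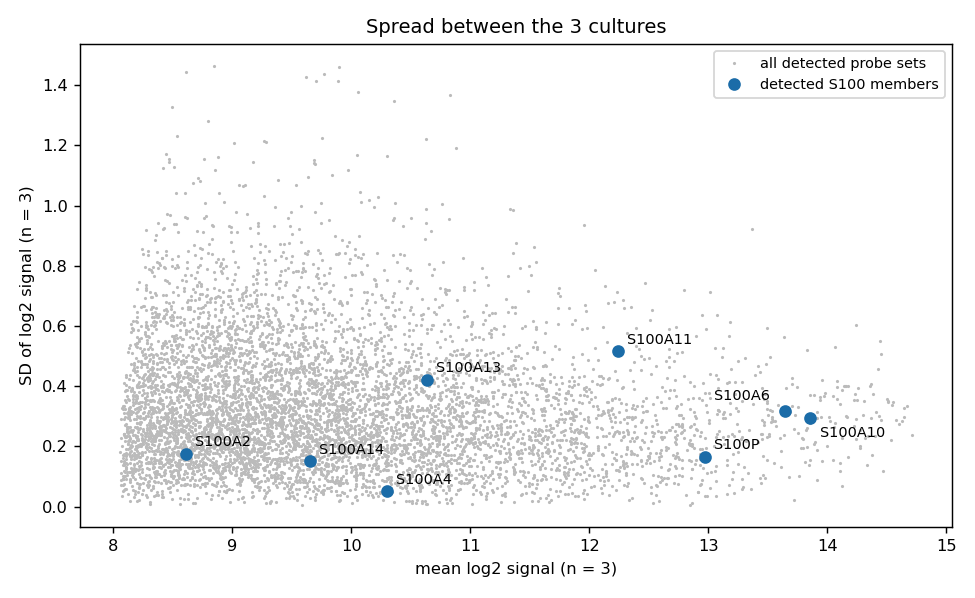
SD of log2 signal over the 3 arrays (y axis) against mean log2 signal (x axis). Grey points are all detected probe sets and blue points the 8 detected members. S100A4 lies at the lower edge of the cloud with an SD of 0.05, and S100A11 lies high for its signal with 0.52.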

How the data were processed

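Cultures had received 200 U/ml IFN-γ over 24 h, per the labels' protocols. Each deposited value is the linear intensity of a probe set. The submitters' processing notes name Affymetrix Expression Console 1.1 and MAS5. The background step, scaling target and presence calls are not given in the sources used here. The mean without the outer 2% of values at each end was 500.3 on each array, so the arrays had like scales by this measure. Scaling can set such a mean, so it is no check that the arrays were otherwise alike. The 100 brightest probe sets held 11.5, 12.6 and 15.5% of the signal in replicates 1, 2 and 3. The number of arrays limits precision.

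Of 22283 probe sets, 6 were empty. The inferred order holds 15 unnamed values, a block of 100 probe sets, 493 probe sets with lower numbers than these, 21622 others in file order and 47 unnamed values. The 62 control probe sets stayed unassigned, also those with a gene symbol, and 1043 annotated with several symbols were left out.

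Intensities were taken to log2 without a pseudocount. Log2 signal minus the limit was fitted with limma 3.58.1 (R 4.3.3), with an intercept and a variance trend. Error in the limit itself does not enter the p-values. The procedure was tested on simulated data, and no result of that test is used here. Named genes are the members, the other measured S100 genes, and listed partners and markers. Members and lists were chosen with earlier results of these data known. Promoters came from RefSeq (GRCh38.p14), and protein sequences were not used here. In all 12 alternatives were tried.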

Additional observations from a re-analysis of the deposited data

How the results depend on the processing

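The count of 8 detected member genes was also 8 under quantile normalization, a pseudocount of 16, no variance trend, a minimum mean signal of 50, a limit at the 90th percentile, a uniform displacement of the names and without any 1 replicate. It was 7 with the limit at the 99th percentile, where S100A2 was lost, and 7 of 9 genes without suffixed probe sets, where S100A4 was not measured. Leaving out 1 replicate gave between 6647 and 7161 detected probe sets, 8 detected member probe sets and 8 member genes each time, and a median SD of all 12 member probe sets from 0.16 to 0.34, against 0.30 with every array. Without suffixed probe sets 3281 of 10100 probe sets were detected. The limit, then set from fewer background probe sets, moved too, and S100A11 lay 4.88 log2 units over it. The cause of the lower count was not tested. Under the names as deposited limma detected 329 probe sets, 199 of them also detected in the inferred order, and 0 member genes and 0 of 12 member probe sets, of which 2 had an unadjusted p under 0.05. The difference from the limit was then -2.90 for S100A11, -2.53 for S100A10, -1.37 for S100A2, -4.84 for S100P, -6.30 for S100A6 and -0.60 for S100A14. It stayed above 0 at 0.78 for S100A4 (limma adjusted p = 0.124) and 0.71 for S100A13 202598_at (limma adjusted p = 0.281). A uniform displacement shifts 3 member probe sets by 1 row and leaves the signals of the other members unchanged. For those others it was therefore no independent check. For the shifted ones it gave 3.77 log2 units for S100A10, 3.51 for S100A11 and 1.76 for S100A13 (202598_at). All were still detected, so the count of detected members does not tell these rows from their neighbours. No paired analysis was possible because all arrays belong to 1 group.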
